A study of Mus musculus with 13 samples.

Results

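The miR-29 family was examined in miRNA array data of 13 mouse melanoma flank tumors. Its 3 mature members, mmu-miR-29a-3p, mmu-miR-29b-3p and mmu-miR-29c-3p, were taken by name from 1079 mouse miRNAs on the array, and all 3 were found. The other strands of the same hairpins, 4 in number, were also on the array, which gave 7 miR-29 arms in all. miR-29 is known in many tissues for repressing genes of the extracellular matrix, above all fibrillar and basement membrane collagens, elastin and fibrillin, as well as the de novo DNA methyltransferases and the survival factor Mcl1. In connective tissue, profibrotic signals such as TGF-beta lower it and matrix production rises, while in tumors it is described both in the cancer cells and in the surrounding fibroblasts. Each hairpin yields a 3p strand, which is the abundant and active form of miR-29, and a 5p strand, which is mostly degraded.

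The tumors had grown from B78H1 cells, an amelanotic melanoma line cloned from mouse B16 melanoma, injected under the flank skin of male C57BL/6 mice. Of these, 7 came from mice on chow with 4% curcumin, a polyphenol of the turmeric plant, and 6 from control mice on the standard form of this chow. Both diets began 14 days before the cells were injected, and tumor growth was followed for 28 days. Cells were injected in both flanks, and the labels do not say which flank a tumor came from. The group sizes are those of the mice, and n = 7 and n = 6 rest on the assumption of 1 tumor per mouse. P-values measure the spread between these tumors, which share 1 cell line and 1 mouse strain. The RNA was that of the whole tumor, so that miR-29 in melanoma cells and in stroma was measured together, and fewer cells of a type and less RNA per cell cannot be told apart.

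Each tumor was hybridized in 1 color to 1 array. The arrays were spread over 2 slides, with curcumin tumors 1 to 3 and control tumors 1 and 2 on slide 1 and the remaining 4 tumors of each diet on slide 2. Within a slide the diets occupied different lines of array positions, controls line 1 and curcumin tumors line 2, so that position and diet cannot be told apart. Between 272 and 412 of the mouse miRNAs were called detected on an array. Curcumin tumor 5 stood apart with the lowest summed signal (114095, against 150272 to 281508 on the other arrays) and the fewest detected miRNAs (272, against 313 to 412), and results are therefore also given without it.

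The sequences show what the array had to tell apart and which members can act on the same targets. They are the mouse RefSeq entries (build GRCm38.p6), in which all 7 arms were matched by name, written 5′ to 3′ with the seed, bases 2 to 8, in capitals. The seed is the stretch that a miRNA pairs with its targets. First come the 3p members, on which the results turn.
mmu-miR-29a-3p: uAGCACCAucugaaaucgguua
mmu-miR-29b-3p: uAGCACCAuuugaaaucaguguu
mmu-miR-29c-3p: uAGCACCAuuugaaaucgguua

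All 3 had the seed AGCACCA, which pairs with UGGUGCU in a target, and no other of 1679 mature mouse miRNAs in the reference table had it. Counted from the 5′ end, miR-29a-3p and miR-29c-3p differed at a single position, C10U, and were 95.5% identical. miR-29b-3p differed from miR-29c-3p by A18G, G21U and U22A within the first 22 bases and had an additional base at its 3′ end. Between miR-29a-3p and miR-29b-3p there were 4 differences in the first 22 bases, C10U, G18A, U21G and A22U. Binding of miR-29a to the miR-29c probes, or the reverse, was not tested.

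The 5p strands are shown because, unlike the 3p members, they differ from each other in the seed and each belongs to a single hairpin. They were at or near the background in many tumors.
mmu-miR-29a-5p: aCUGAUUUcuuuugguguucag
mmu-miR-29b-1-5p: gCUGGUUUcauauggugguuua
mmu-miR-29b-2-5p: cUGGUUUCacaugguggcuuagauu
mmu-miR-29c-5p: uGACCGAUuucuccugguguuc

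The hairpins lie in a pair of genomic clusters and are shown with their mature arms in capitals. Mir29a and Mir29b-1 lie on the minus strand of chromosome 6, at chr6:31062660-31062747 and chr6:31063023-31063093, with 275 bases between them. They overlap no other gene of the RefSeq table, and the nearest protein-coding gene is Klf14. Mir29b-2 and Mir29c lie on the plus strand of chromosome 1, at chr1:195037040-195037120 and chr1:195037547-195037634, with 426 bases between them, within the span of the long noncoding RNA gene A330023F24Rik and nearest to the protein-coding gene Cd46.
Mir29a: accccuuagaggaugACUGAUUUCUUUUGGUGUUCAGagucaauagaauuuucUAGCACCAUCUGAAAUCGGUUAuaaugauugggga
Mir29b-1: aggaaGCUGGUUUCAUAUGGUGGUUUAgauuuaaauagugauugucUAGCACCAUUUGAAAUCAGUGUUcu
Mir29b-2: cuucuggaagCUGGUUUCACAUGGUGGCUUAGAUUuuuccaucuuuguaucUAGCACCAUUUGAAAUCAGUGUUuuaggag
Mir29c: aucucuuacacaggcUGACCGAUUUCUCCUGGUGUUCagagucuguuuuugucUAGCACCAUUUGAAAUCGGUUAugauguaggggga
Thus miR-29a-3p, miR-29a-5p and miR-29b-1-5p come only from the chromosome 6 cluster, and miR-29c-3p, miR-29c-5p and miR-29b-2-5p only from the chromosome 1 cluster. miR-29b-3p is the same molecule from both, and its signal cannot be divided between them.

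All 3 mature members were higher in tumors of curcumin-treated mice than in controls, 2.88-fold for miR-29a-3p, 3.12-fold for miR-29b-3p and 2.15-fold for miR-29c-3p. They were detected on all 13 arrays, which held for 243 of the 1079 miRNAs. Values are summed probe signals after quantile normalization between arrays, on the log2 scale, and a difference is therefore relative to the other miRNAs of the same array.

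The values of miR-29a-3p, the sole 3p product of the Mir29a hairpin, ranged in curcumin tumors from 11.15 through a median of 12.03 to 12.40. In controls they ranged from 9.91 through a median of 10.40 to 10.99. Every curcumin tumor was above every control tumor, with curcumin tumor 5 and control tumor 5 closest to each other. The difference of the means, 11.95 ± 0.45 (SD, n = 7) against 10.43 ± 0.44 (n = 6), was 1.52 (SE 0.24, 95% interval 0.99 to 2.06), with an adjusted p of 0.00348 by limma and an exact permutation p of 0.00117 (two-sided, 1716 splits of the tumors, smallest p 0.000583). In fold terms the interval reached from 1.99 to 4.16.

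For miR-29b-3p, made from both clusters, the values lay between 9.51 and 11.15 in curcumin tumors (median 10.86) and between 8.58 and 9.66 in controls (median 8.92). Here the groups overlapped, because curcumin tumor 5 (9.51) lay below control tumor 5 (9.66), while the other 6 curcumin tumors lay at 10.56 or more. The means were 10.66 ± 0.55 (SD, n = 7) and 9.02 ± 0.45 (n = 6). Their difference was 1.64 (SE 0.28, 95% interval 1.03 to 2.25), with an adjusted p of 0.00380 by limma and an exact permutation p of 0.00175. This corresponds to a fold change between 2.04 and 4.77.

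miR-29c-3p, the 3p product of Mir29c, had a median of 8.95 in curcumin tumors, between 8.11 and 9.19, and a median of 7.73 in controls, between 7.33 and 8.01. The groups did not overlap, and again curcumin tumor 5 was the lowest of its group. The means of 8.81 ± 0.37 (SD, n = 7) and 7.71 ± 0.26 (n = 6) differed by 1.10 (SE 0.18, 95% interval 0.71 to 1.50), with an adjusted p of 0.00348 by limma and an exact permutation p of 0.00117. The fold change lay between 1.64 and 2.82.

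**Figure D1:**
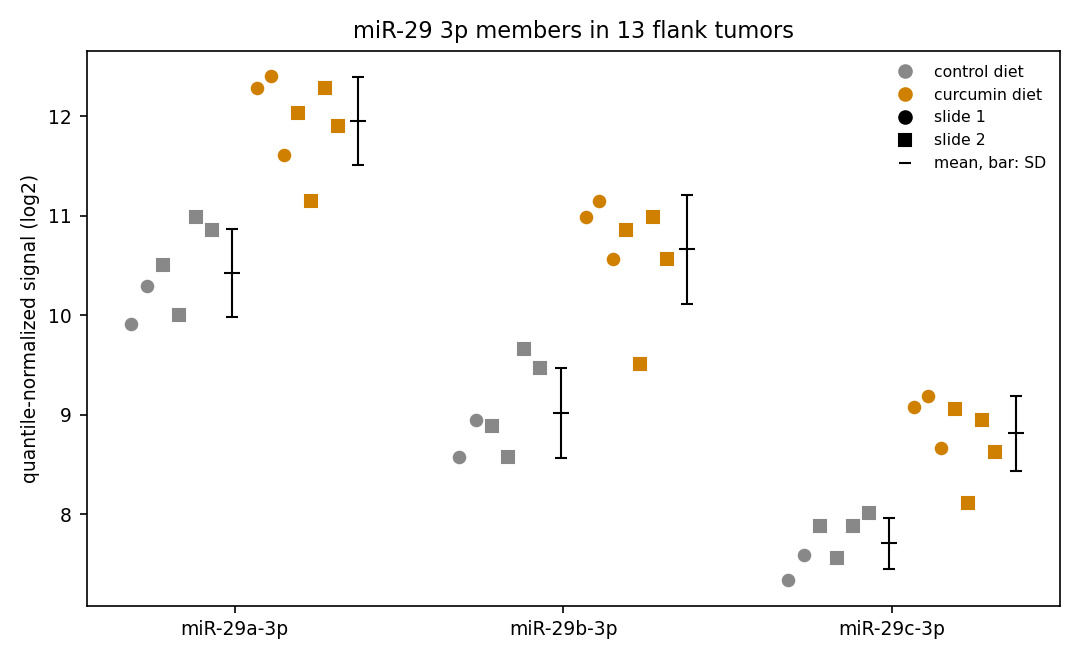
Log2 quantile-normalized signal of the 3 mature miR-29 members in each tumor, with control tumors in gray, curcumin tumors in orange, circles for slide 1 and squares for slide 2, and the mean and SD of each group beside the points. The groups are apart for miR-29a-3p and miR-29c-3p, and for miR-29b-3p a single curcumin tumor at 9.51 lies below the highest control at 9.66; heights of different members cannot be compared because their probes differ.

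The same contrast was visible in the scanner signals before normalization, but with a wider spread. The summed signal of miR-29a-3p had a median of 4655 intensity units over the curcumin tumors, with limits of 886 and 8521, and a median of 1069 over the controls, with limits of 687 and 2573. For miR-29b-3p it was 381 to 4117 (median 2252) against 322 to 1183 (median 465), and for miR-29c-3p 128 to 839 (median 478) against 145 to 315 (median 191). The groups overlapped for all 3 members on this scale. With no normalization the differences on the log2 scale were 1.75, 1.84 and 1.11, and the limma calls were lost (adjusted p = 0.0692, 0.0688 and 0.146), while 49 miRNAs in place of 171 were called in all. In the log2 values that the authors deposited the differences were 1.52, 1.63 and 1.09 (adjusted p by limma between 0.000661 and 0.000861).

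Calls were frequent on these arrays. Of all 1079 miRNAs 15.8% were called at an adjusted p below 0.05 by limma, 8.34% higher and 7.51% lower in curcumin tumors. Among the 243 miRNAs detected on all arrays the share was 41.6%, with 20.2% higher and 21.4% lower. Of the 7 miR-29 arms 5 were called higher and none lower, and of the 4 arms detected on all arrays all 4 were called higher. Ordered by the size of the rise among those 243 miRNAs, miR-29b-1-5p was number 14, miR-29b-3p number 18, miR-29a-3p number 19 and miR-29c-3p number 31. The median difference of the 243 miRNAs was -0.09, and that of all miRNAs was 0. Of all normalized values, however, 51.4% were at or below 0 and were set to the same smallest positive value. A miRNA with this value on all arrays has a difference of 0 and cannot be called, which also lowers the shares called among all miRNAs. A complete separation, with every curcumin tumor above every control tumor, occurred in 4.08% of all miRNAs and in 8.23% of those detected on all arrays.

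**Figure D2:**
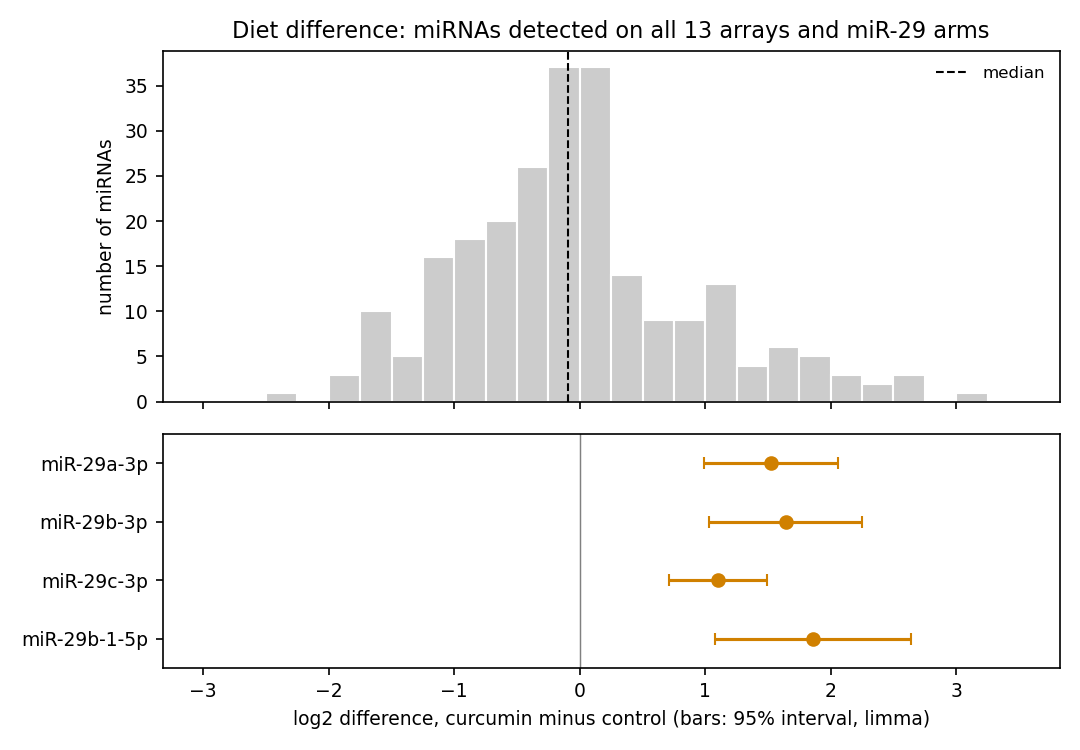
The upper panel is a histogram of the log2 difference, curcumin minus control, of the 243 miRNAs detected on all arrays, with the median as a dashed line, and the lower panel gives the difference and 95% limma interval of the 4 miR-29 arms among them. The 4 arms lie on the right-hand side between 1.10 and 1.86, with intervals that stay above 0, and larger rises are also present in the histogram.

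Each mature member was read by 2 probes of 20 spots each. All 6 probes were called higher in curcumin tumors. Of the 2754 probes of the array 10.2% were called in either direction and 5.95% higher. These shares include probes of miRNAs that were not detected, and a share for probes of detected miRNAs alone was not computed. For whole miRNAs the share called higher was 8.34% among all and 20.2% among those detected on all arrays. With the 5p strands, 11 of 18 miR-29 probes were called higher and none lower. The probes of miR-29a-3p differed between diets by 1.56 and 1.55 on the log2 scale, and those of miR-29c-3p by 1.02 and 1.06. For miR-29b-3p they gave 1.99 (SE 0.36) and 1.58 (SE 0.26), with intervals of 1.21 to 2.78 and 1.01 to 2.15 that overlap. The adjusted p by limma over all probes lay between 0.00410 and 0.00610. Every spot of these probes, or at least 95% of them, was well above background on each array, and no spot was saturated.

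Among the 5p strands, miR-29b-1-5p of the chromosome 6 cluster was the only arm detected on all 13 arrays. Its median was 3.68 in curcumin tumors, between 2.73 and 5.01, and 1.77 in controls, between 1.31 and 2.91. Curcumin tumor 5, at 2.73, was below control tumor 1, at 2.91, and the other 6 curcumin tumors were above all controls. The difference was 1.86 (SE 0.35, 95% interval 1.08 to 2.64), a 3.63-fold rise (adjusted p = 0.00610 by limma, exact permutation p = 0.00175). The size depended on the processing, with a difference of 1.25 in the deposited log2 values and 0.27 after normexp background correction. Normexp was run with an offset of 50 added to the spots, which makes log2 differences of dim spots smaller. The call was kept there (adjusted p = 0.00234 by limma) and lost with no normalization (adjusted p = 0.171 by limma). Of its 4 probes, 2 were above the floor in all tumors and gave 2.21 (SE 0.37) and 1.73 (SE 0.30), both without overlap between diets. The probe with 2.21 had 0% of its spots well above background on every control array and 0% to 100% on curcumin arrays. For the probe with 1.73 the share was 10% to 100% on control arrays and 50% to 100% on curcumin arrays. The remaining 2 probes were at the floor in part of the tumors of both diets. The floor is the smallest positive normalized value, -7.03 on the log2 scale for a summed miRNA, to which values at or below 0 were set.

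miR-29c-5p, of the chromosome 1 cluster, was called detected on 6 arrays of the 7 curcumin tumors and on no control array. Its median was 3.00 in curcumin tumors, between 2.75 and 3.42, and 2.28 in controls, between 1.38 and 2.55, without overlap after this normalization. Before normalization curcumin tumor 5, where it was not called detected, had a summed signal of 2.62, below all controls (3.29 to 5.78). In the deposited log2 values the groups overlapped, with the lowest curcumin tumor at 3.15 and the highest control at 3.33. It was not called detected in any control, although every control value lay above the lowest level called detected on its array. Taking the higher of these levels on each control array therefore left the rise at the fitted 1.91-fold (95% interval 1.42 to 2.59). This is an estimate and not a lower bound. The fitted difference of 0.94 (SE 0.20) had an adjusted p of 0.00958 by limma and an exact permutation p of 0.000583, the smallest that the splits allow. In the deposited log2 values the difference was 0.34 and the call was lost (adjusted p = 0.123 by limma). The difference was 0.065 after normexp background correction and 0.67 with no normalization, and the call was lost there too (adjusted p = 0.0542 and 0.257 by limma). It was kept under 8 of 14 other settings.

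The 2 remaining arms gave little. miR-29a-5p was called detected on 3 arrays of the 7 curcumin tumors and on no control array, had 2 control values at the floor, and did not pass the test (adjusted p = 0.0569 by limma). Its highest value was 2.17 in curcumin tumors (median 0.97) and 0.03 in controls, and no fold is given for it, since most of its values in both diets were not above background. miR-29b-2-5p, the other strand of the Mir29b-2 hairpin, was not detected on any of the 13 arrays and was at the floor in all, so that neither a level nor a change can be given for it.

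**Figure D3:**
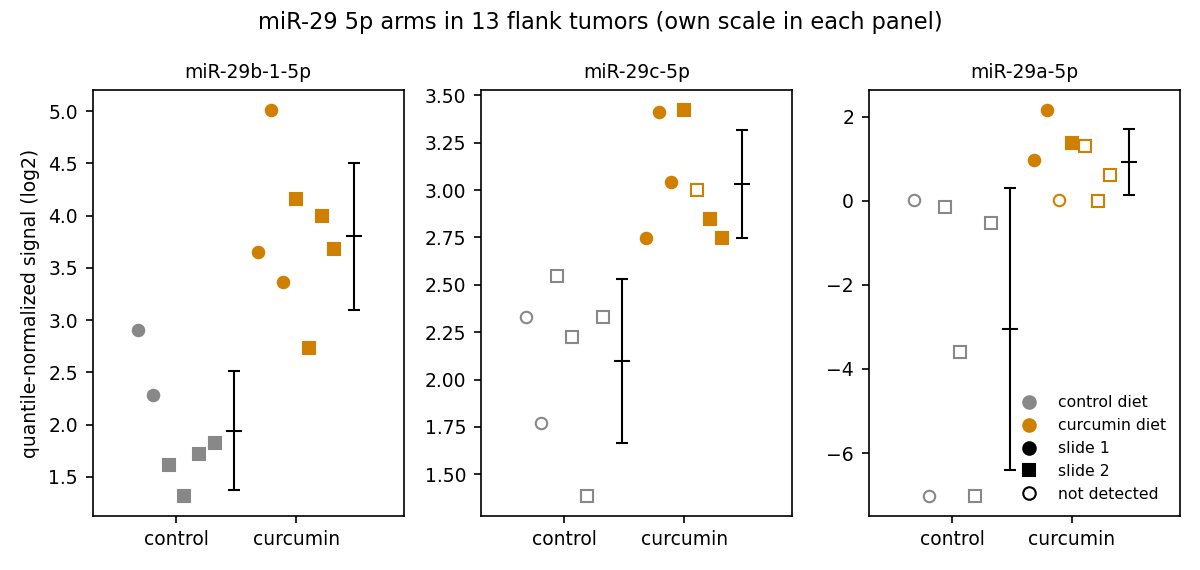
Log2 quantile-normalized signal of miR-29b-1-5p, miR-29c-5p and miR-29a-5p in each tumor, with filled symbols where the miRNA was called detected and open symbols where it was not, circles for slide 1, squares for slide 2, and the mean and SD of each group beside the points. miR-29b-1-5p was detected in every tumor, miR-29c-5p in 6 curcumin tumors and no control, and 2 control values of miR-29a-5p stand at the floor of -7.03.

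Whether members of the clusters changed by different amounts was asked with the difference of a pair of arms within each array, compared between diets with an exact permutation test in 5 pairs. The level of such a difference depends on the probes, and only its change between diets is read here. miR-29a-3p and miR-29c-3p, each from a cluster of its own, did not change equally. miR-29a-3p minus miR-29c-3p had a median of 3.20 in curcumin tumors, between 2.95 and 3.33, and a median of 2.67 in controls, between 2.45 and 3.11. The rise of miR-29a-3p was thus larger by 0.42 on the log2 scale (SE 0.11, 95% interval 0.18 to 0.66), or 1.34-fold (exact permutation p = 0.00466, adjusted over the 5 pairs 0.00971). Curcumin and control tumors overlapped in this difference.

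miR-29b-3p likewise rose more than miR-29c-3p, by 0.54 (SE 0.14, 95% interval 0.23 to 0.84), or 1.45-fold (exact permutation p = 0.00583, adjusted 0.00971). The within-array difference had a median of 1.91 in curcumin tumors, with tumor 5 lowest at 1.40 and the highest at 2.04, and a median of 1.30 in controls, between 1.01 and 1.78. Between miR-29a-3p and miR-29b-3p no unequal change was shown. Their difference moved by -0.12 (SE 0.08, 95% interval -0.30 to 0.07; exact permutation p = 0.201, adjusted 0.201). Without curcumin tumor 5 this difference moved by -0.17 and passed the test (adjusted exact permutation p = 0.0108), and with only the brightest probe of each miRNA it was 0.025. When diets were exchanged only between arrays of the same slide, the exact permutation p, adjusted over the 5 pairs, was 0.0161 for both pairs that include miR-29c-3p and 0.160 for the third.

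**Figure D4:**
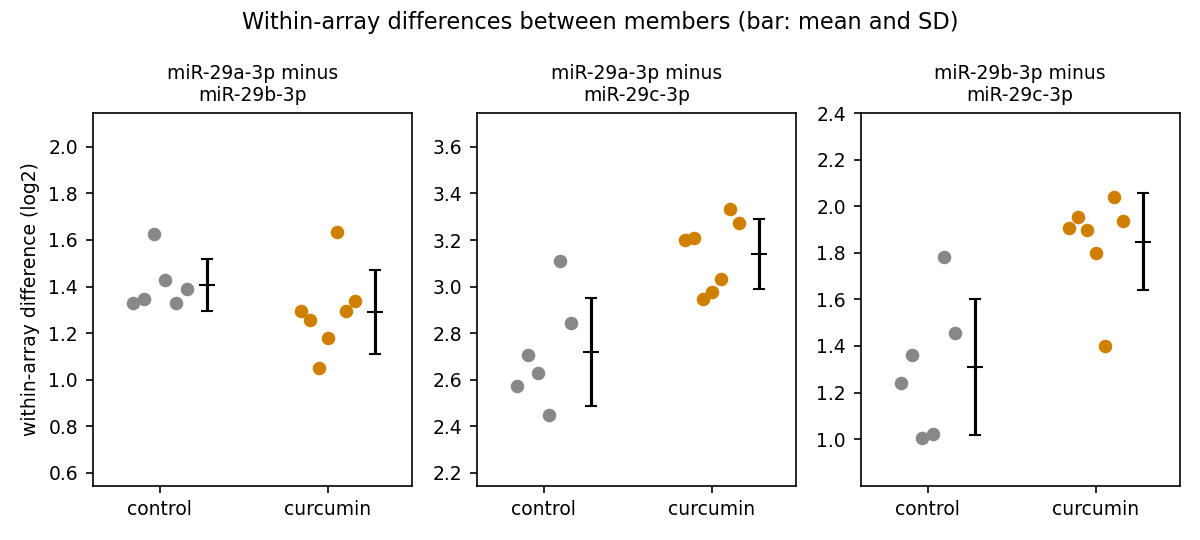
Within-array log2 difference between each pair of mature members in control and curcumin tumors, with the mean and SD beside the points and the same height of scale in every panel. The difference of miR-29a-3p and miR-29c-3p and that of miR-29b-3p and miR-29c-3p are higher in curcumin tumors by 0.42 and 0.54, and that of miR-29a-3p and miR-29b-3p differs by -0.12 with broad overlap.

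The 5p strands could not answer the same question. miR-29a-5p minus miR-29c-5p was higher in curcumin tumors by 3.04 (exact permutation p = 0.00816, adjusted 0.0102), but this size depended on the floor. With a floor of 1 the value was -0.015 (adjusted exact permutation p = 0.963). With each array's lowest detected miRNA as the floor it was 1.05 (adjusted p = 0.0437), and with only the brightest probe of each miRNA 0.82 (adjusted p = 0.0175). miR-29b-1-5p minus miR-29b-2-5p was higher by 1.86 (adjusted exact permutation p = 0.00874), which is the rise of miR-29b-1-5p alone, since miR-29b-2-5p was at the floor in all tumors.

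On each slide by itself the members were higher in curcumin tumors, with smaller differences on slide 2. The differences on slide 1 were 2.00 for miR-29a-3p, 2.14 for miR-29b-3p and 1.52 for miR-29c-3p (adjusted p by limma 0.0892, 0.0621 and 0.0775). On slide 2 they were 1.25, 1.33 and 0.85 (adjusted p 0.198, 0.236 and 0.198), and with fewer tumors none passed the threshold on either slide. Of all miRNAs 3.15% were called on slide 1 and 0.278% on slide 2. The unequal effect on the slides was not shown (unadjusted p of the limma interaction 0.168, 0.198 and 0.0864, adjusted p = 1 for each), and of all miRNAs 0 had an interaction past the threshold, 11 at an unadjusted p below 0.05. The groups did not overlap on slide 1 for any of the 3 members, and on slide 2 they overlapped only for miR-29b-3p.

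The spread within a diet was shared by the members. Curcumin tumor 5 lay 0.88 below its diet mean, averaged over the 3 members, and curcumin tumor 2 lay 0.44 above it. Among controls, tumors 5 and 6 lay 0.46 and 0.39 above the mean, and tumor 1 lay 0.44 below. Without curcumin tumor 5, whose array was also the dimmest, the differences between diets were 1.66 (SE 0.21), 1.83 (SE 0.21) and 1.22 (SE 0.14) for miR-29a-3p, miR-29b-3p and miR-29c-3p (adjusted p by limma between 0.000176 and 0.000343), and all 6 remaining curcumin tumors were above all controls for each of the 3.

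Within the 7 curcumin tumors Pearson's r was 0.96 between miR-29a-3p and miR-29b-3p (exact permutation p = 0.000794), 0.95 between miR-29a-3p and miR-29c-3p (exact p = 0.00357) and 0.97 between miR-29b-3p and miR-29c-3p (exact p = 0.00159). Spearman's rho was 0.99, 0.90 and 0.93 (exact p = 0.00159, 0.00952 and 0.00794). Within the 6 controls r was 0.97, 0.91 and 0.80 for the same pairs (exact p = 0.00556, 0.0167 and 0.0833), and rho was 0.93, 0.90 and 0.79 (exact p = 0.0222, 0.0278 and 0.0806). Adjusted over the 6 relations, p for r was between 0.00476 and 0.0200 except for the last, at 0.0833, and that for rho between 0.00952 and 0.0333 except for the last, at 0.0806. Without the 2 tumors farthest from the median of the first member, r was 0.96, 0.80 and 0.92 in curcumin tumors and 0.94, 0.94 and 0.67 in controls. The members share array, labeling and most of their sequence.

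**Figure D5:**
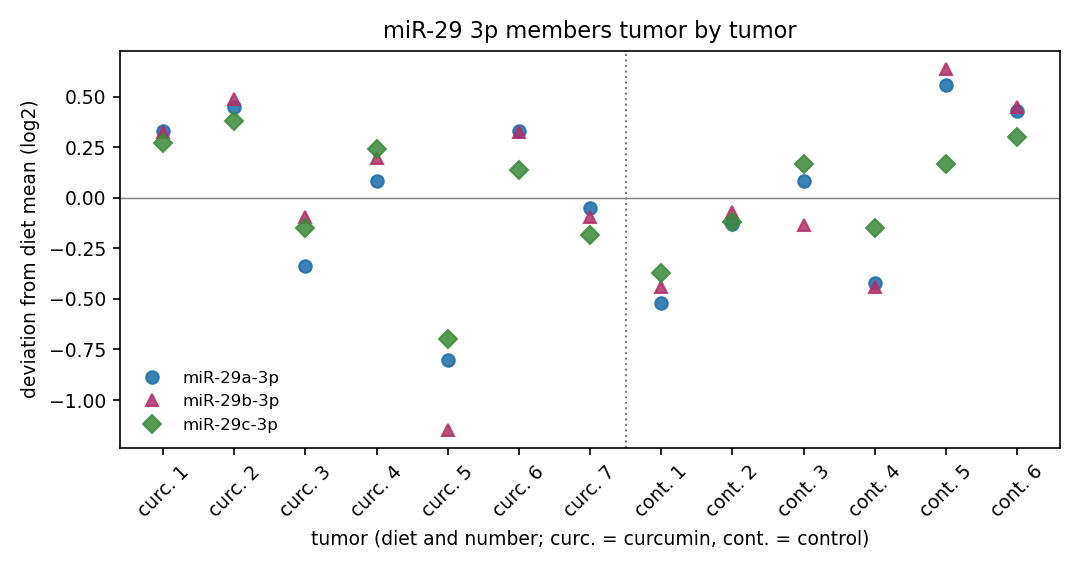
Deviation of each mature member from the mean of its diet group, in log2 units, for the 7 curcumin and 6 control tumors. The 3 members of a tumor lie close to each other, curcumin tumor 5 lies lowest with a mean deviation of -0.88, and control tumors 5 and 6 lie highest among controls with 0.46 and 0.39.

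Outside the miR-29 hairpins, 239 miRNAs detected on all arrays were ordered by how closely their deviations from the diet means followed the mean deviation of the 3 members over the 13 arrays, as a description with no test. The closest were miR-146b-5p (r = 0.92), an NF-kB-responsive miRNA, miR-22-3p (r = 0.90), miR-140-3p (r = 0.87), known from cartilage, miR-21-5p (r = 0.87), which is raised in many tumors and in fibrosis, and miR-322-5p (r = 0.87), of the miR-15/16 seed family. These points share the arrays and their signal level. Curcumin tumor 5 lay farthest from its diet mean (-0.88 averaged over the 3 members), and r without it was not computed. The 5 closest were themselves called higher in curcumin tumors, beside 20.2% of the 243 miRNAs detected on all arrays. On the log2 scale miR-146b-5p rose by 3.01 (SE 0.51), miR-22-3p by 1.91 (SE 0.31) and miR-140-3p by 2.28 (SE 0.32). miR-21-5p rose by 2.57 (SE 0.54) and miR-322-5p by 1.65 (SE 0.26), and adjusted p by limma for the 5 was between 0.00179 and 0.00939.

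Other miRNAs with a known part in matrix production and fibrosis were read from a list of 13, chosen with earlier results of these data known. Of these 4 were called higher, 1 lower and 8 did not pass the test, and the median difference was 0.22. Among all miRNAs 8.34% were called higher and 7.51% lower, and among those detected on all arrays 20.2% and 21.4%. miR-21-5p, a profibrotic miRNA, was higher by 2.57, as given above. miR-199a-5p, a fibroblast miRNA that promotes fibrosis, was higher by 2.55 (SE 0.50, adjusted p = 0.00655 by limma), and miR-155-5p, of activated white blood cells, by 1.75 (SE 0.35, adjusted p = 0.00749). miR-26a-5p, described as antifibrotic like miR-29, was higher by 0.90 (SE 0.15, adjusted p = 0.00351). miR-19b-3p, a miRNA of dividing cells and likewise described as antifibrotic, was lower by -1.01 on the log2 scale (SE 0.20, adjusted p = 0.00655). The matrix regulators miR-30c-5p and let-7d-5p had differences of -0.14 and -0.07 that did not pass the test (adjusted p = 0.754 and 1).

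miR-148a, miR-148b, miR-152 and miR-143, which like miR-29 are known to target DNA methyltransferases, made a list of 4, of which 1 was called higher, none lower, and the median difference was 0.76. This share is near the 20.2% called higher among miRNAs detected on all arrays. miR-152-3p was higher by 1.32 (SE 0.26, adjusted p = 0.00751 by limma). miR-148b-3p and miR-143-3p had differences of 0.20 and 0.20 (adjusted p = 0.569 and 0.687), and miR-148a-3p was detected on 3 of 6 control arrays and did not pass the test (adjusted p = 0.0574).

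Some miRNAs that mark other cells of a tumor were also higher in curcumin tumors, mainly those of white blood cells and the miR-199 strands, and their part in the result was not tested. The counts of the cell type lists stand beside 8.34% of all miRNAs called higher, and 20.2% of those detected on all arrays. Of the fibroblast and mural cell list 3 of 6 were called higher and none lower, with a summed normalized signal of 781 to 1678 in curcumin tumors and 251 to 584 in controls. The miR-199 strands of fibroblasts, miR-199a-5p, miR-199a-3p and miR-199b-5p, rose by 2.55, 2.21 and 2.14, while miR-143-3p and miR-145-5p of smooth muscle and pericytes had differences of 0.20 and -0.05 (adjusted p = 0.687 and 1). All 4 white blood cell miRNAs were called higher, with a summed signal of 342 to 1347 against 84.4 to 286. Only 2 of the 4 were detected on all arrays. miR-142-5p was called detected on 3 of 6 control arrays and miR-150-5p on none, so that these calls rest in part on values not above background. miR-142-3p of this list rose by 2.31 (SE 0.40) and miR-223-3p, of myeloid cells, by 1.21 (SE 0.32), with adjusted p of 0.00407 and 0.0295 by limma.

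For the other cell types the counts were smaller. Of the skeletal muscle list 1 of 4 was called higher, miR-206-3p by 1.24 (SE 0.37, adjusted p = 0.0423 by limma), and the summed signal overlapped between diets, 29.1 to 962 against 23.4 to 607. Neither of the 2 endothelial miRNAs was called, miR-126-3p having a difference of 0.83 (adjusted p = 0.0647), and the summed signal was 254 to 820 against 137 to 281. Neither of the 2 red blood cell miRNAs measured was called, with a summed signal of 45.4 to 277 against 39.9 to 714.

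Of the epithelial list 1 of 7 was called higher, miR-205-5p, and 5 of the 7, miR-200a-3p, miR-200b-3p, miR-200c-3p, miR-141-3p and miR-429-3p, were not detected on any array. miR-205-5p was called detected on all 7 curcumin arrays and on 3 of 6 control arrays, with 2 values at the floor. Its call thus rests in part on values not above background. The remaining member, miR-203-3p, was not called (adjusted p = 0.0517 by limma). The summed signal of this list was 218 to 1739 in curcumin tumors and 3.31 to 165 in controls. Of the 2 melanocytic miRNAs, miR-211-5p was called lower and miR-204-5p was not called. The summed signal of these was 4.19 to 624 in curcumin tumors and 308 to 847 in controls, and miR-211-5p, the defining marker, was called detected on 4 arrays of the 7 curcumin tumors and on every control array.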

How the data were processed

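The intensity values deposited by the authors, 1 array per tumor, are the output of Feature Extraction 10.10.1.1, in which background has been subtracted, the spots of a probe combined and every miRNA called detected or not, without normalization between arrays. A table of log2 values, quantile normalized by the authors, was deposited too. Here the probe signals of each of 1079 mouse miRNAs were summed, quantile normalized, set to at least 0.00765, the smallest positive value, and log2 transformed. The 57 virus miRNAs were left out. Between 19.0% and 29.6% of the spots were well above background, and the number of arrays limits the precision.

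The diets were set against each other in a limma fit (limma 3.58.1 under R 4.3.3; moderated, two-sided, without covariates), which was tested on simulated data. P-values were adjusted by Benjamini-Hochberg over the 1079 miRNAs, or over all probes for single probes, and a call is an adjusted p below 0.05. For single values an exact permutation test enumerated 1716 splits.

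Named are the 7 miR-29 arms, the 5 miRNAs closest to the members, and up to 4 members of each list with the largest differences among those detected on all arrays; others were named after their values were seen. The members and lists were chosen with earlier results of these data known. Same-numbered tumors of the diets were not paired (correlation of deviations -0.30 to 0.20). Alternatives were the deposited values, other scalings, background corrections, floors and probe summaries, only detected miRNAs, the methods' t-test, the slide as a block or by itself, the replicate number as a block, and each tumor left out in turn. Tumor growth, histology, qRT-PCR and target genes were not analysed here.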

Additional observations from a re-analysis of the deposited data

Results flagged for a closer look

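In groups of 6 or 7 tumors, the highest or lowest tumor was compared with the nearest of the others by Dixon's criterion at the 95% level. Chance meets it in about 1 of 20 groups, and 3 of 24 groups met it. The 24 include the groups of miR-29b-2-5p, which was at the floor in all tumors and could not be tested. They also include miR-29b-1-5p minus miR-29b-2-5p, which repeats miR-29b-1-5p. In miR-29b-3p, curcumin tumor 5 had a value of 9.51, with the next curcumin tumor at 10.56. In miR-29b-3p minus miR-29c-3p the same tumor had 1.40, with the next at 1.80. In miR-29a-3p minus miR-29b-3p, control tumor 3 had 1.62, with the next control at 1.43.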

How the results depend on the processing

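The direction of the 3 mature members was kept under all alternatives, with differences of 1.25 to 2.00 for miR-29a-3p, 1.33 to 2.14 for miR-29b-3p and 0.85 to 1.52 for miR-29c-3p over 15 settings, and the call under 11 of these. The calls were lost with no normalization (1.75, 1.84 and 1.11; adjusted p = 0.0692, 0.0688 and 0.146; 0 arms and 49 miRNAs called), on slide 1 alone (2.00, 2.14 and 1.52; 0 arms, 34 miRNAs) and on slide 2 alone (1.25, 1.33 and 0.85; 0 arms, 3 miRNAs), both with fewer tumors. With the replicate number as a block over 6 pairs, in which 0 of 6 numbers correlated best with their own, the differences were 1.53, 1.66 and 1.13 (adjusted p = 0.0538, 0.0616 and 0.0527), with 1 arm and 67 miRNAs called.

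A 75th percentile taken over all miRNAs as the scale gave 105 called miRNAs in place of 171 (69.5% of them higher, against 52.6%), no normalization 20.4% higher, and the cause was not tested. Leaving out each tumor in turn gave 1.42 to 1.66, 1.55 to 1.83 and 1.03 to 1.22 for the 3 members (highest adjusted p 0.0114), 5 to 6 arms, and 103 to 184 miRNAs, with the lowest counts without curcumin tumors 1, 2 or 6 (111, 112 and 103) or control tumors 2 or 4 (107 and 103).

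In the pairs, the replicate block gave 0.40 for miR-29a-3p minus miR-29c-3p and 0.52 for miR-29b-3p minus miR-29c-3p (adjusted p = 0.104 for both), 3.04 for miR-29a-5p minus miR-29c-5p and 1.88 for miR-29b-1-5p minus miR-29b-2-5p (adjusted p = 0.117 and 0.104). miR-29a-3p minus miR-29b-3p was 0.025 with the brightest probe and, left out in turn, -0.17 (without curcumin tumor 5) to -0.073 (without control tumor 3). miR-29a-5p minus miR-29c-5p was 0.072 in the deposited values, 1.37 with no normalization, -0.015 with a floor of 1 and 0.82 with the brightest probe. miR-29b-1-5p minus miR-29b-2-5p was 1.61 with each array's lowest detected miRNA as the floor (adjusted p = 0.0583), a setting added after seeing the data. Normexp was run on the median spot signal in place of the mean, with an offset of 50. Signal near the background limits the 5p arms, and miR-29a-5p passed the test under some settings, among them the deposited values (adjusted p = 0.0257).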
